A study of Mus musculus with 16 samples.

Results

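Cells of mouse brown fat after 7 days of cold were compared with cells from thermoneutral housing, library against library, inside each cell cluster. The comparison took 8 of the 16 libraries of the series, 4 per condition, chosen by their housing label. Thermoneutral mice were kept at 30 °C for 1 week and cold mice at 5 °C for 7 days. All were C57BL6J mice on free food, with no transgene, deletion or drug in the labels, which give neither age nor sex and do not say whether a library held 1 mouse or several. P-values therefore measure the spread between libraries. The material was the stromal vascular fraction of interscapular brown fat, which is the pellet left after digestion once floating fat cells, red cells and dead cells are taken off. Its few cells labelled Adipo are thus those that did not float, and shares of cells describe this pellet.

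Brown adipose tissue burns fuel to make heat, and sympathetic nerves drive it when an animal is cold. Over days in the cold the tissue also grows, with division of progenitors and endothelial cells and a denser capillary net. Vascular smooth muscle forms the contractile wall of arteries and veins, pericytes wrap capillaries, endothelial cells line all vessels, and Schwann cells ensheath the nerve fibres.

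The 4 thermoneutral libraries held 27716 cells and the 4 cold libraries 20882, of 109723 in the series. The authors gave a cluster name to 8215 and 2933 of these cells, of 24352 named cells in the series. Names are used here as labels: VSM (vascular smooth muscle, as in the series title), AP, EC, Schwann, Pericyte, Lymph_EC, ECAP, VSM-AP and Adipo, each followed by a cluster number, 28 in all. The tables hold no gene values, so names could not be checked against markers, and no doublet call was made. The tables give per cell the UMIs (transcript molecules counted), the mitochondrial share of UMIs, the complexity (log10 of detected genes over log10 of UMIs), and scores for genes of the S phase (DNA synthesis) and of the G2 and M phases (G2M, preparation for division and division).

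Library size ran from 1473 to 10005 cells over the 8 libraries, and the median depth of all cells from 2492 to 5079 UMIs. The lowest UMI count of any cell was 1850, 809, 1921 and 801 in thermoneutral replicates 1 to 4. In cold replicates 1 to 4 it was 804, 800, 806 and 808. Thermoneutral replicates 1 and 3 thus held no cells as shallow as the shallowest of the other libraries. Any pair of the 8 libraries shared at most 28 cell barcodes. Over all cells, none of 7 library measures passed (exact permutation tests, adjusted p of 0.5 or more). Over the named cells the mean G2M score was lower in every cold library than in every thermoneutral one, at −0.0152 ± 0.0067 against −0.00468 ± 0.0012 (SD, n = 4; exact permutation p = 0.0286, the smallest that 4 against 4 can give; adjusted p = 0.16 over 7 measures). Cold replicate 4 was the smallest library, with 470 named cells, of which 12.6% had over 20% mitochondrial UMIs.

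The largest shift inside a class on the log2 odds scale was in VSM_21, a rare cluster of the smooth muscle class. In percentage points several clusters, among them EC_11, EC_10 and AP_9, moved more. VSM_21 made up 1.3%, 1.36%, 0.839% and 0.838% of the VSM cells in thermoneutral replicates 1 to 4. The corresponding shares in the cold were 14%, 19.3%, 8.43% and 7.58%. Every cold library was thus above every thermoneutral one, with means of 1.08% ± 0.283 and 12.3% ± 5.43 (SD, n = 4). The VSM class, to which these shares refer, was itself smaller in the cold. It held 2006, 221, 954 and 1789 cells in thermoneutral and 200, 296, 249 and 132 in cold replicates 1 to 4. A higher share is therefore not a rise in cell number by the same factor. The log2 odds ratio was 3.55 ± 0.44 (SE; adjusted p = 9.27e-06, limma). Replicates 1 and 2 taken alone gave 3.77, and replicates 3 and 4 gave 3.34. The other conditions of the series lay in between, with 1.77% ± 0.544 at room temperature (n = 4) and 4.35% ± 0.542 after 2 days of cold (n = 3).

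Cells of VSM_21 were few, 52 in the thermoneutral and 116 in the cold libraries, and they were not alike in both conditions. In a second clustering that the authors made on all cells, into 61 numbered clusters, cluster 28 is the pericyte cluster: 90.5% of its cells are named and 85.6% of those are Pericyte_12. This cluster took 21.2% of the thermoneutral VSM_21 cells (95% Wilson interval 12.2 to 34) and 71.6% of the cold ones (62.8 to 79; cells pooled over libraries, counting error only). Cluster 51, whose named cells are nearly all VSM, took 44.2% and 8.62%. With the cells in cluster 28 left out, a setting chosen after seeing the data, VSM_21 was 0.628% ± 0.445 of VSM cells in thermoneutral and 4.1% ± 2.28 in cold libraries (exact permutation p = 0.0286, n = 4). The lowest cold library, at 1.3%, was then close to the highest thermoneutral one, at 1.05%.

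VSM_21 cells of the cold were also shallow. Their median was 2430, 2201, 1561 and 2230 UMIs in cold replicates 1 to 4, while the remaining VSM cells of the same libraries had medians of 14682, 16636, 8951 and 11201. In thermoneutral replicates 1 and 4, the only ones with at least 10 such cells, the medians were 4267 and 3998 UMIs, against 7460 and 7403 for the remaining VSM cells. When cells below the median depth of their library were dropped, VSM_21 was too rare to be tested. Their mitochondrial share was 4.35%, 1.78%, 1.86% and 3.72% in the cold libraries, whereas the larger VSM clusters lay near 10%. The part that depth, the unequal lowest UMI counts of the libraries and pericyte-cluster cells had in the rise of VSM_21 was not tested.

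EC_11 showed the opposite shift, in the endothelial class. It was 38.3%, 31.9%, 38.9% and 37.4% of EC cells in thermoneutral replicates 1 to 4. In the cold it was 6.96%, 11.3%, 11.1% and 16.4%. Groups did not overlap, and the means were 36.6% ± 3.2 and 11.4% ± 3.85 (SD, n = 4). The log2 odds ratio was −2.17 ± 0.52 (SE; adjusted p = 0.00743, limma), and the first pair of replicates gave −2.42, the second −1.92. The share averaged 29.2% ± 15.9 at room temperature (n = 4) and 19.1% ± 3.77 after 2 days of cold (n = 3). EC_11 was the deepest of the EC clusters tested, with medians of 10282 to 17524 UMIs in thermoneutral libraries. As its share went down, the median depth of the whole EC class went from 6826 ± 1022 UMIs to 3524 ± 245 (SD, n = 4). How far the loss of this deep cluster set the class median was not tested. When cells below the median depth of their library were dropped, the log2 odds ratio of EC_11 was −2.40 (adjusted p = 0.0055, limma). In the clustering of all cells, 93.8% of thermoneutral and 76.1% of cold EC_11 cells lay in cluster 22.

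VSM_21 and EC_11 were the only clusters past the threshold, 2 of 20 tested (10.0%; 1 higher, 5.00%, and 1 lower, 5.00%; Benjamini-Hochberg adjusted p under 0.05, limma). Since shares within a class sum to 100%, a rise of 1 cluster lowers the others.

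**Figure D1:**
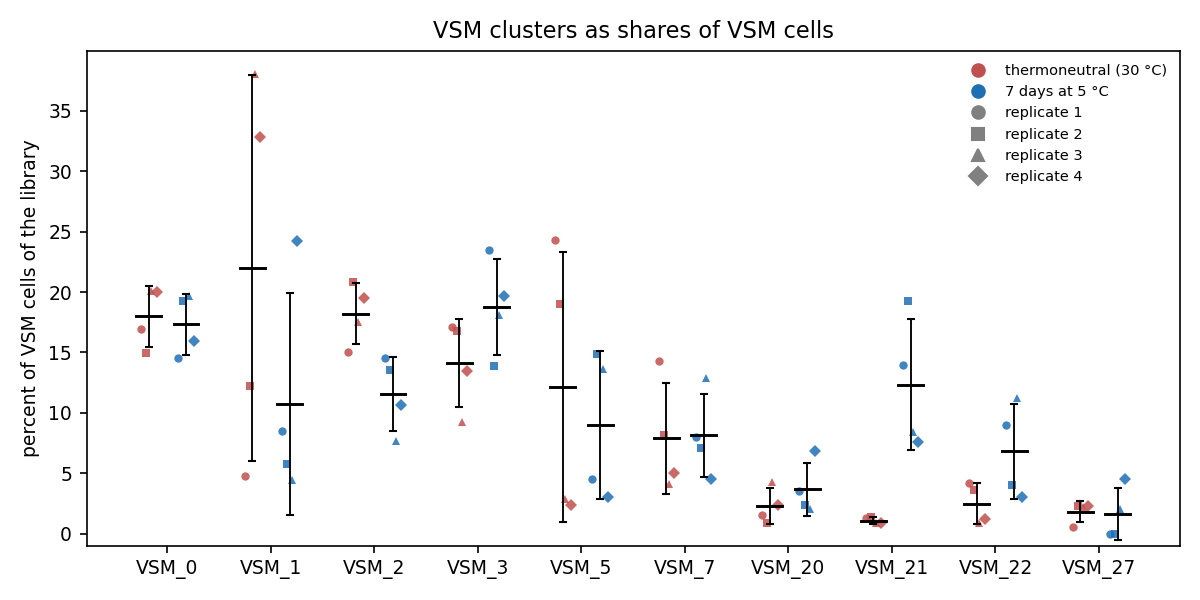
Percent of the VSM cells of each library (vertical axis) in each of the 10 VSM clusters (horizontal axis); points are libraries, coloured by condition with a symbol per replicate, bars the mean and SD of 4 libraries. VSM_21 rose from about 1.08% to 12.3% with no overlap, while VSM_1 and VSM_5 spread widely within each condition.

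The other EC clusters did not pass. EC_10 was 14.6%, 13.9%, 36.8% and 27% of EC cells in the thermoneutral libraries and 52.5%, 33.3%, 57.8% and 45.5% in the cold. Only 1 thermoneutral library reached into the cold range, and the log2 odds ratio was 1.66 ± 0.61 (SE; adjusted p = 0.0819, limma). With replicates 1 and 2 set against 3 and 4 as a covariate it passed, with an adjusted p of 0.0043 (limma), as it did without thermoneutral replicate 3 (0.0401). EC_15 averaged 19.5% ± 7.99 and 28.9% ± 9.27, EC_23 14.3% ± 7.53 and 6.66% ± 4.9, and EC_28 6.14% ± 2.55 and 4.78% ± 2.36 (thermoneutral and cold, SD, n = 4; adjusted p = 0.314, 0.247 and 0.698, limma). EC_32 had a mean share below 1% in both conditions and was too rare to be tested.

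Among the common VSM clusters, VSM_2 was lower in each cold library than in any thermoneutral one. It was 15%, 20.8%, 17.5% and 19.5% of VSM cells in thermoneutral replicates 1 to 4 and 14.5%, 13.5%, 7.63% and 10.6% in the cold, which did not pass (log2 odds ratio −0.78 ± 0.47 SE, adjusted p = 0.314, limma). VSM_22, a small cluster, averaged 2.47% ± 1.68 and 6.83% ± 3.93 (SD, n = 4; log2 odds ratio 1.66 ± 0.62 SE, adjusted p = 0.0819, limma). It passed once the libraries under 3000 cells were left out, with a log2 odds ratio of 2.28 and an adjusted p of 0.0345 (limma), and without thermoneutral replicate 1 (0.0461). The remaining VSM clusters were VSM_0 at 18% and 17.3%, VSM_1 at 22% and 10.7%, VSM_3 at 14.1% and 18.8%, and VSM_5 at 12.1% and 9.01%. VSM_7 was at 7.89% and 8.12%, VSM_20 at 2.29% and 3.67%, and VSM_27 at 1.83% and 1.64% (thermoneutral and cold means, n = 4). These 7 clusters had adjusted p of 0.314 to 0.969 (limma). VSM_1 and VSM_5 followed the replicate number within thermoneutral housing: VSM_5 took 24.3% and 19% of VSM cells in the first pair, and 2.83% and 2.4% in the second.

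In the AP class the leading cluster was AP_9, with 52.4%, 60.6%, 58.2% and 42.4% of AP cells in thermoneutral and 44.4%, 24%, 32.1% and 48.9% in cold replicates 1 to 4. The difference did not pass (log2 odds ratio −0.97 ± 0.47 SE, adjusted p = 0.224, limma), and the groups overlapped. AP_8 averaged 30.7% ± 12.3 and 35.7% ± 11.6, AP_25 5.6% ± 5.49 and 9.7% ± 5.82, and AP_26 10.4% ± 7.52 and 17.3% ± 3.02 (SD, n = 4; adjusted p = 0.698, 0.314 and 0.314, limma). Schwann_14 held 77.4% ± 13.8 of Schwann cells in the 3 thermoneutral libraries with at least 10 such cells and 73.8% ± 18.5 in the 4 cold libraries, Schwann_18 the rest. Their ratio did not pass (log2 odds ratio −0.17 ± 1.00 SE, adjusted p = 0.945, limma). The interval is wide, so a shift of either sign remains possible. Cells labelled Adipo numbered 6 in all thermoneutral libraries and were not compared.

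**Figure D2:**
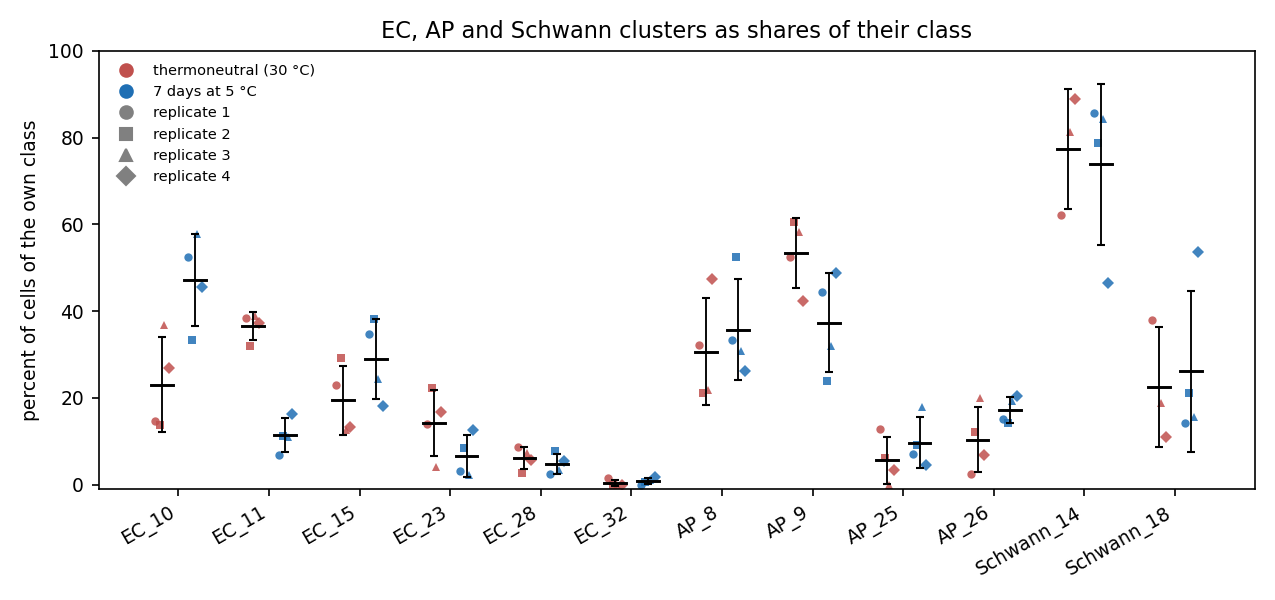
Percent of the cells of the own class (vertical axis) for the EC, AP and Schwann clusters (horizontal axis); points are libraries with at least 10 cells of the class, coloured by condition, bars the mean and SD. EC_11 fell from 36.6% to 11.4% without overlap, EC_10 was mostly higher in the cold but overlapped, and the AP clusters overlapped.

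How evenly cells were spread over the clusters of a class was measured by the effective number of clusters (inverse Simpson index: the number of equally large clusters that would give the same evenness). For VSM it was 6.08, 6.52, 4.36 and 4.80 in thermoneutral and 7.05, 6.93, 7.41 and 6.65 in cold replicates 1 to 4. Cold libraries were all higher, with means of 5.44 ± 1.02 and 7.01 ± 0.318 (SD, n = 4; exact permutation p = 0.0286, adjusted p = 0.0429 over 3 classes). For AP it was 2.53, 2.32, 2.35 and 2.44 against 2.97, 2.76, 3.75 and 2.85, again without overlap (exact permutation p = 0.0286, adjusted p = 0.0429, n = 4). In the EC class the means were 3.74 ± 0.36 and 2.99 ± 0.603 (exact permutation p = 0.0857, n = 4). Both calls rested on the smallest p of this design, and leaving out any 1 of the 8 libraries ended them (adjusted p = 0.0857 to 0.114, exact permutation tests).

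The G2M score fell in VSM and EC clusters. Of 15 named clusters with at least 10 cells in 3 or more libraries of each condition, 6 were lower (40.0%, limma) and 0 higher (0 also at an unadjusted p under 0.05). VSM_0 had means of −0.00861, −0.0104, −0.00551 and −0.00466 in thermoneutral replicates 1 to 4. In the cold they were −0.0477, −0.0412, −0.0412 and −0.0328. The conditions stood well apart, by −0.0334 ± 0.00382 (SE; adjusted p = 1.18e-05, limma). VSM_0 was intermediate after 2 days of cold, at −0.0195 (n = 3), and at −0.00427 at room temperature (n = 4).

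VSM_7 differed by −0.0367 ± 0.00658 (SE; adjusted p = 0.00059, limma), from −0.00404 to −0.0407. VSM_2 differed by −0.0296 ± 0.00577 and VSM_3 by −0.0233 ± 0.00404 (SE; adjusted p = 9.16e-04 and 4.79e-04, limma). In VSM_0, VSM_2, VSM_3 and VSM_7 the lowest thermoneutral library lay above the highest cold one. VSM_1 did not pass (−0.0171 ± 0.0123 SE, adjusted p = 0.344, limma): its cold libraries were at 0.0211, −0.0351, −0.0514 and −0.0515, replicate 1 being higher than any thermoneutral library. Cold replicate 1 held 1 VSM_1 cell with a score above 0.2, and VSM_1 counted only 77 cells over the cold libraries. The weight of this cell in the mean was not tested.

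In endothelium, EC_10 had G2M means of 0.0133, 0.0182, 0.0007 and 0.00663 in thermoneutral and −0.017, −0.0241, −0.00743 and −0.0285 in cold libraries. The difference was −0.029 ± 0.0086 (SE; adjusted p = 0.0125, limma). With the libraries under 3000 cells left out it was −0.0231 and did not pass (adjusted p = 0.162, limma). EC_15 was lower by a like amount, −0.0299 ± 0.0082 (SE; adjusted p = 0.00884, limma), although cold replicate 4, at 0.0036, lay inside the thermoneutral range. EC_11 did not pass (0.00754 ± 0.0189 SE, adjusted p = 0.748, limma), nor did the AP, Pericyte, Lymph_EC, ECAP, VSM-AP and Schwann clusters. VSM_1 did not pass either. With the median over cells in place of the mean 10 clusters were lower, VSM_1, EC_11, ECAP_4 and Lymph_EC_19 being added (limma). Without cold replicate 1, VSM_1 and EC_11 also passed as lower (limma). The direction was the same within replicates 1 and 2 and within replicates 3 and 4 for all 6 clusters that passed.

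**Figure D3:**
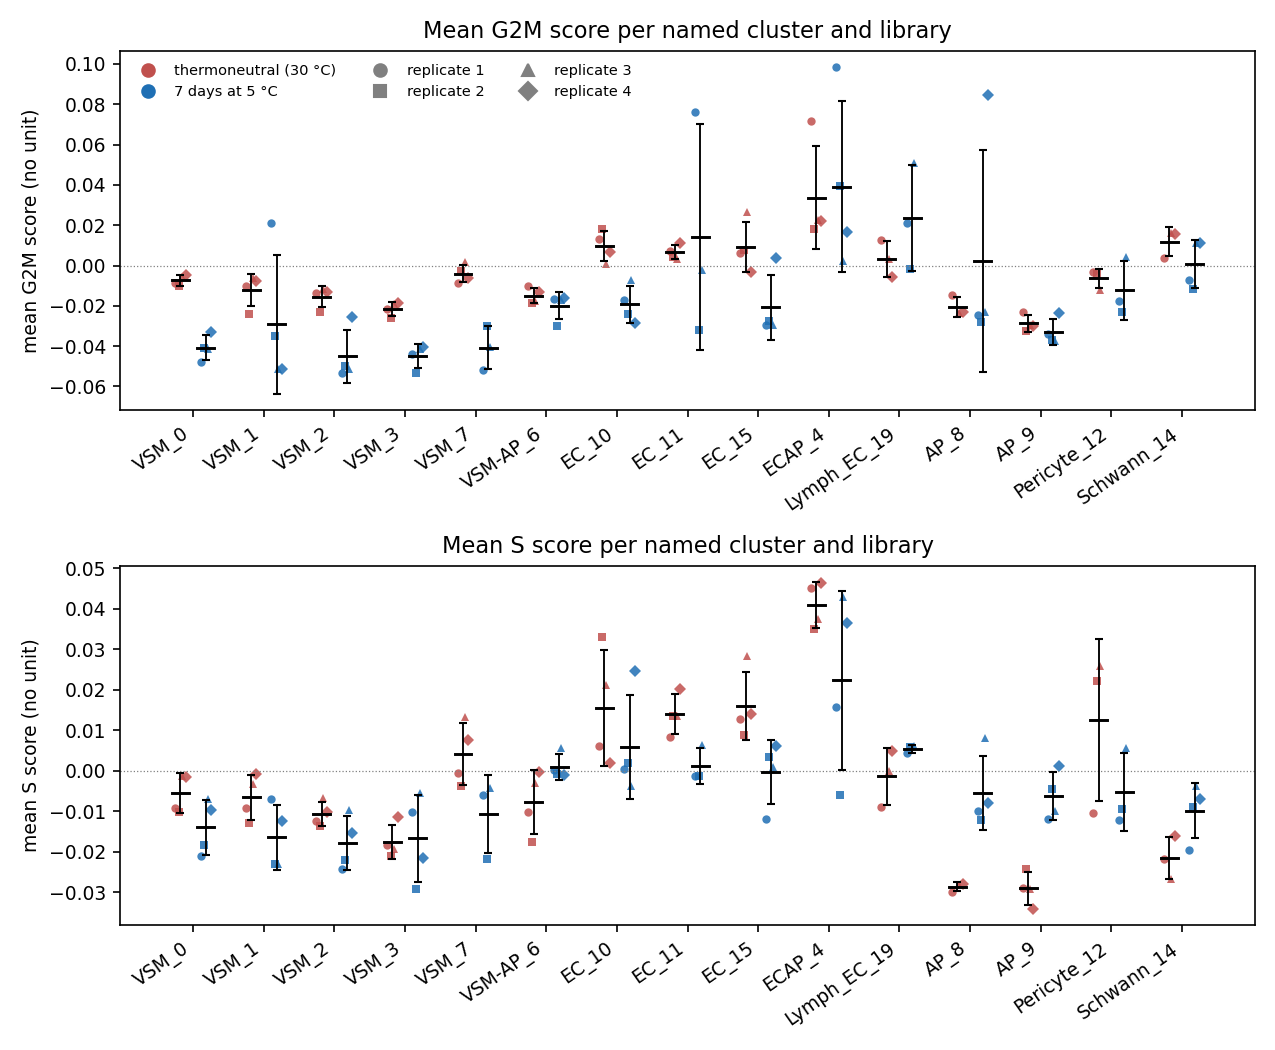
Mean G2M score (upper panel) and mean S score (lower panel) of each library for the 15 named clusters tested; scores have no unit, points are libraries coloured by condition, bars the mean and SD. Cold libraries lie below thermoneutral ones in the upper panel for VSM_0, VSM_2, VSM_3, VSM_7 and EC_10, and above them in the lower panel for AP_8 and AP_9.

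The 10th, 50th and 90th percentiles of the G2M score over VSM cells were −0.0515, −0.0131 and 0.0277 in thermoneutral libraries and −0.075, −0.0416 and 0.00075 in cold ones (means of 4 library values). For EC cells they were −0.044, −0.00102 and 0.0487 against −0.0738, −0.0276 and 0.0296. For AP cells they were −0.069, −0.0297 and 0.0185 against −0.0701, −0.034 and 0.0165. All 3 mean percentiles were lower in the cold for VSM, EC and AP cells, with the smallest differences in AP.

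The authors' phase call is made from these scores. It put 26.9%, 20.4%, 29.7% and 27.4% of VSM cells of thermoneutral replicates 1 to 4 in G2M and 8.5%, 9.12%, 8.03% and 9.85% of the cold ones. For EC the means were 31.2% ± 6.21 and 16% ± 4.81, for AP 18.7% ± 11.6 and 13.4% ± 2.43, and for Schwann cells 59.4% ± 9.05 and 36.4% ± 5.42 (SD, n = 4). No minimum of cells was set for these means, and thermoneutral replicate 2 held only 8 Schwann cells. These calls are relative to the scored cells, and no cell division was read from them. VSM cells with a score above 0.2 numbered 0 in the thermoneutral libraries and 7 in the cold ones, 6 of them in VSM_21 and 1 in VSM_1 of cold replicate 1.

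**Figure D4:**
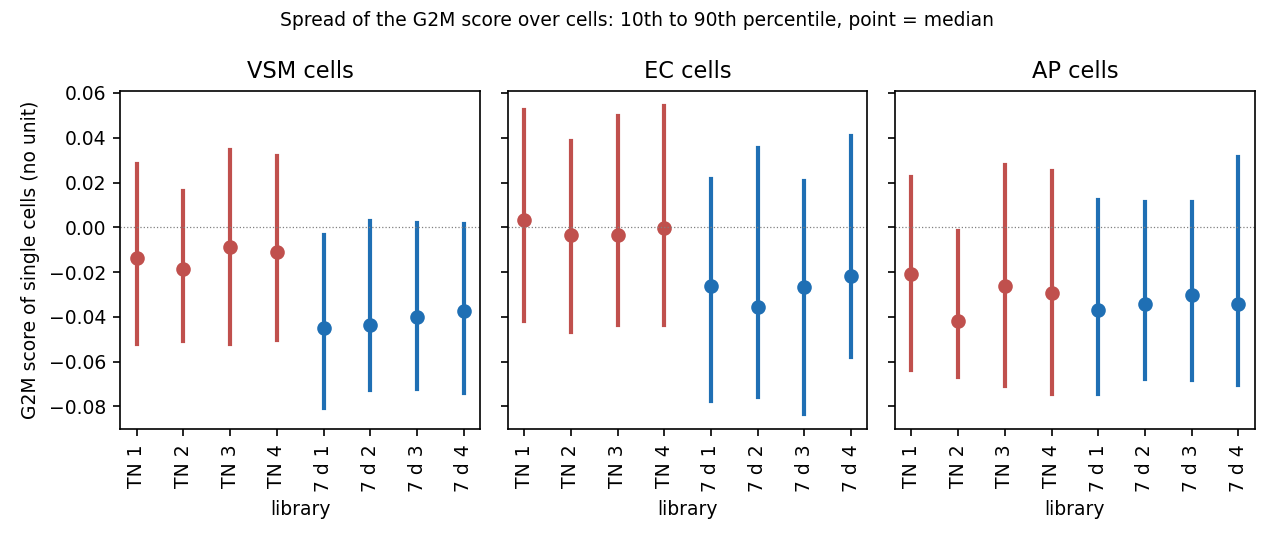
G2M score without unit (vertical axis) of VSM, EC and AP cells in each of the 8 libraries (horizontal axis); marks are the 50th percentile and bars run from the 10th to the 90th. The bars overlap in all 3 classes; the 50th percentile of every cold library lies below that of every thermoneutral library for VSM and EC cells, and for AP cells the 50th percentiles overlap.

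The median depth of VSM cells was 8004 ± 2662 UMIs in thermoneutral and 12022 ± 2914 in cold libraries (SD, n = 4), whereas that of EC cells went down, as given above. These are depths of whole classes, not of the clusters with a lower score. The part of depth in the G2M score of named clusters was not tested. The score also fell outside the named classes. Of 32 numbered clusters of all cells tested, 15 had a lower G2M score (46.9%, limma), 0 a higher one (0 at an unadjusted p under 0.05), and 27 of the 32 estimates were negative. The authors computed scores anew for each table, so their levels differ between the tables. The largest falls were in cluster 10, whose most common name is VSM_0, and in clusters 35 and 31, which hold no named cell. Cluster 10 went from −0.0688 ± 0.000573 to −0.106 ± 0.00358, cluster 35 from 0.0277 ± 0.0147 to −0.00881 ± 0.0069, and cluster 31 from −0.0157 ± 0.0175 to −0.0519 ± 0.0258 (SD; n = 4 thermoneutral libraries each and 4, 3 and 3 cold ones; adjusted p = 1.12e-06, 0.00104 and 0.0205, limma). Cluster 31 did not pass without thermoneutral replicate 4 or cold replicate 1 (adjusted p = 0.0637 and 0.108, limma), nor in a fit of the 8 libraries alone (0.0612).

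Scores were also set relative to the library mean, taken over all cells for numbered clusters and over named cells for named clusters. Then 0 of the 32 numbered and 2 of the 15 named clusters passed (limma), VSM_0 and VSM_2. The class mix behind the mean of named cells differed between conditions, as given below for the mitochondrial share. The part of this mix in the relative G2M scores was not tested. Among cells of 2000 to 4000 UMIs, 12 numbered clusters could be tested, and 6 had a lower G2M score (limma). Of the 15 clusters lower at all depths, 8 could not be tested in this window, 5 passed again, and clusters 0 and 3 did not. The sixth was cluster 13, in which AP is the leading class and which did not pass at all depths (adjusted p = 0.842, limma).

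Among the named clusters, the S score rose in the AP class. Of 15 named clusters 2 passed (13.3%, limma), both AP and both higher. With replicates 1 and 2 set against 3 and 4 as a covariate 8 passed (limma): VSM-AP_6 and Schwann_14 were also higher, and VSM_0, VSM_2, VSM_7 and EC_11 lower. AP_9 had mean S scores of −0.0289, −0.0242, −0.0291 and −0.034 in thermoneutral and −0.0118, −0.00441, −0.00993 and 0.0012 in cold replicates 1 to 4. The conditions did not overlap, and differed by 0.0228 ± 0.00537 (SE; adjusted p = 0.0139, limma). AP_8 had −0.0298, −0.0282 and −0.0279 in the 3 thermoneutral libraries with at least 10 of its cells and −0.00991, −0.0122, 0.00808 and −0.00803 in the cold. This was a difference of 0.0231 ± 0.00689 (SE; adjusted p = 0.0381, limma), also without overlap. AP_9 no longer passed without thermoneutral or cold replicate 4 (adjusted p = 0.0569 and 0.0615, limma), and AP_8 was lost in 7 such omissions: thermoneutral replicates 1, 3 and 4, cold replicates 1, 3 and 4, and room temperature replicate 2 (adjusted p = 0.0534 to 0.106, limma). Both were already higher after 2 days of cold, at −0.0017 for AP_9 and −0.00513 for AP_8 (n = 3).

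Over all AP cells the share called S was 14.8%, 15.2%, 16.4% and 11.9% in thermoneutral replicates 1 to 4 and 38.4%, 31.3%, 41% and 38.6% in the cold. VSM cells were at 30.9% ± 3.65 and 27.1% ± 4.62, and EC cells at 44.9% ± 9.11 and 43.1% ± 10.8 (SD, n = 4). With the libraries under 3000 cells left out, which are replicate 2 of thermoneutral housing and replicate 4 of cold among the 8, AP_9 and AP_8 kept differences of 0.022 and 0.024 but neither passed (adjusted p = 0.0561 for both, limma). AP cells of the cold had a median of 4934 ± 2017 UMIs against 6398 ± 1667 (SD, n = 4). The part of depth in the S score of named clusters was not tested, since too few named cells fell between 2000 and 4000 UMIs. Numbered clusters could be tested in this window. Cluster 13, in which AP is the leading class, did not pass in the S score there (limma), nor at all depths.

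Differences of effect between classes were tested directly, a test added after seeing the data. The S score effect was 0.0224 in AP, −0.00229 in VSM and −0.00544 in EC cells. AP differed from VSM and from EC (exact permutation p = 0.0286 for each, n = 4), as did the G2M effect of AP from that of EC, but over 6 such tests the adjusted p was 0.0571. The G2M effects of VSM and AP, −0.017 and 0.00538, did not differ detectably (difference −0.0223, exact permutation p = 0.114, n = 4, adjusted p = 0.171). In AP, cold replicate 4 had a mean G2M score of 0.00157 but a 50th percentile of −0.0345, with 2 cells above 0.2. Means of cold replicates 1 to 3 were −0.0316, −0.0267 and −0.028. By 50th percentiles the AP difference was −0.00434, of the opposite sign. The G2M effects of VSM and EC were −0.017 and −0.0185 (exact permutation p = 0.857 for their difference, n = 4).

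Of the numbered clusters, 5 of 32 passed in the S score (15.6%, limma), 1 higher (3.12%) and 4 lower (12.5%). Cluster 1, with no named cell, was higher, from −0.0072 ± 0.00327 to 0.0132 ± 0.00328 (SD, n = 4; adjusted p = 0.00639, limma). Cluster 13, which holds 99.9% of the AP_8 and 97.9% of the AP_9 cells of the series, did not pass. The rise of the AP clusters was thus called with the scores of the named cells only. Clusters 4, 9 and 10, in which VSM is the leading class, were lower by −0.0239, −0.025 and −0.029 (adjusted p = 0.0101, 0.00699 and 0.00418, limma); without cold replicate 2, cluster 4 had an adjusted p of 0.0508. The pericyte cluster 28 was lower by −0.0288 ± 0.00914 (SE; adjusted p = 0.0419, limma), with overlapping groups, and it was lost in 11 of 16 omissions of a single library (adjusted p = 0.0516 to 0.171, limma).

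The mitochondrial share rose in VSM-AP_6. Its median was 18.1%, 20.9%, 19.3% and 30.6% of UMIs in thermoneutral replicates 1 to 4. In the cold it was 51%, 29.9%, 35.6% and 41.1%. Thermoneutral replicate 4 lay just above cold replicate 2, so the groups overlapped slightly. The difference of log2 (percent + 0.1) was 0.83 ± 0.22 (SE; adjusted p = 0.0232, limma). It was the only one of 15 named clusters past the threshold (6.67%, limma). In a fit of the 8 libraries alone its adjusted p was 0.0703 (limma), and without thermoneutral replicate 1, 2 or 3 or cold replicate 1 it was 0.0993, 0.0717, 0.0947 and 0.122. Set relative to the median of all named cells of the library, 13 of the 15 passed, all higher (limma). That median itself was 6.98% ± 1.56 in thermoneutral and 4.85% ± 1.18 in cold libraries (SD, n = 4). The class mix behind it differed. VSM cells, with class medians of 8.14% and 9.94%, averaged 1242.5 of 2053.75 named cells per thermoneutral library and 219.25 of 733.25 per cold library. The part of this mix in the 13 calls was not tested.

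Mitochondrial RNA comes from the organelle of respiration, in which brown fat cells are rich. VSM-AP_6 had by far the highest share of the named clusters tested and, in both conditions, a modest depth, 3440 ± 1167 and 3688 ± 1336 UMIs (SD, n = 4). In the VSM clusters VSM_0, VSM_1 and VSM_2 all cold libraries were above all thermoneutral ones without passing: VSM_2 was at 7.35%, 8.92%, 9.28% and 9.69% against 10.8%, 10.9%, 11.1% and 11.1% (adjusted p = 0.231, limma). Schwann_14 went from 2.41% ± 0.557 (n = 3) to 3.51% ± 0.184 (n = 4; SD), also without overlap or passing (adjusted p = 0.162, limma). Over the 15 clusters 12 estimates were positive. Over the 32 numbered clusters 28 were positive and 0 passed (0%, limma; 3 at an unadjusted p under 0.05).

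Depth fell in ECAP_4, from 4132, 5779, 6597 and 6258 UMIs in thermoneutral replicates 1 to 4 to 2321, 1232, 3344 and 4970 in the cold. Cold replicate 4 overlapped with the thermoneutral libraries, and the log2 difference was −1.09 ± 0.35 (SE; adjusted p = 0.0297, limma), the only call among 15 named clusters (6.67%, limma). It did not pass without thermoneutral replicate 3 or 4 or cold replicate 1 or 2 (adjusted p = 0.133, 0.118, 0.134 and 0.154, limma). The test of depth pooled the spread over clusters, although clusters of a library share its depth. With a spread per cluster, chosen after seeing the data, 0 of the 15 and 0 of 32 numbered clusters passed (limma). Relative to the median of all named cells, which was 7138 ± 1683 UMIs in thermoneutral and 5362 ± 705 in cold libraries (SD, n = 4), ECAP_4 did not pass (adjusted p = 0.147, limma) and 9 other clusters did, all higher. The class mix behind this median also differed, as given for the mitochondrial share. The 5 VSM clusters tested were deeper in the cold by 0.56 to 0.86 on the log2 scale and none passed. All 5 passed with the libraries under 3000 cells left out, and VSM_1 and VSM_3 without thermoneutral replicate 2 (limma). VSM_3, the deepest of them, had 10739, 17468, 7844 and 10630 UMIs in thermoneutral and 22189, 24823, 14748 and 21166 in cold libraries (adjusted p = 0.104, limma).

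**Figure D5:**
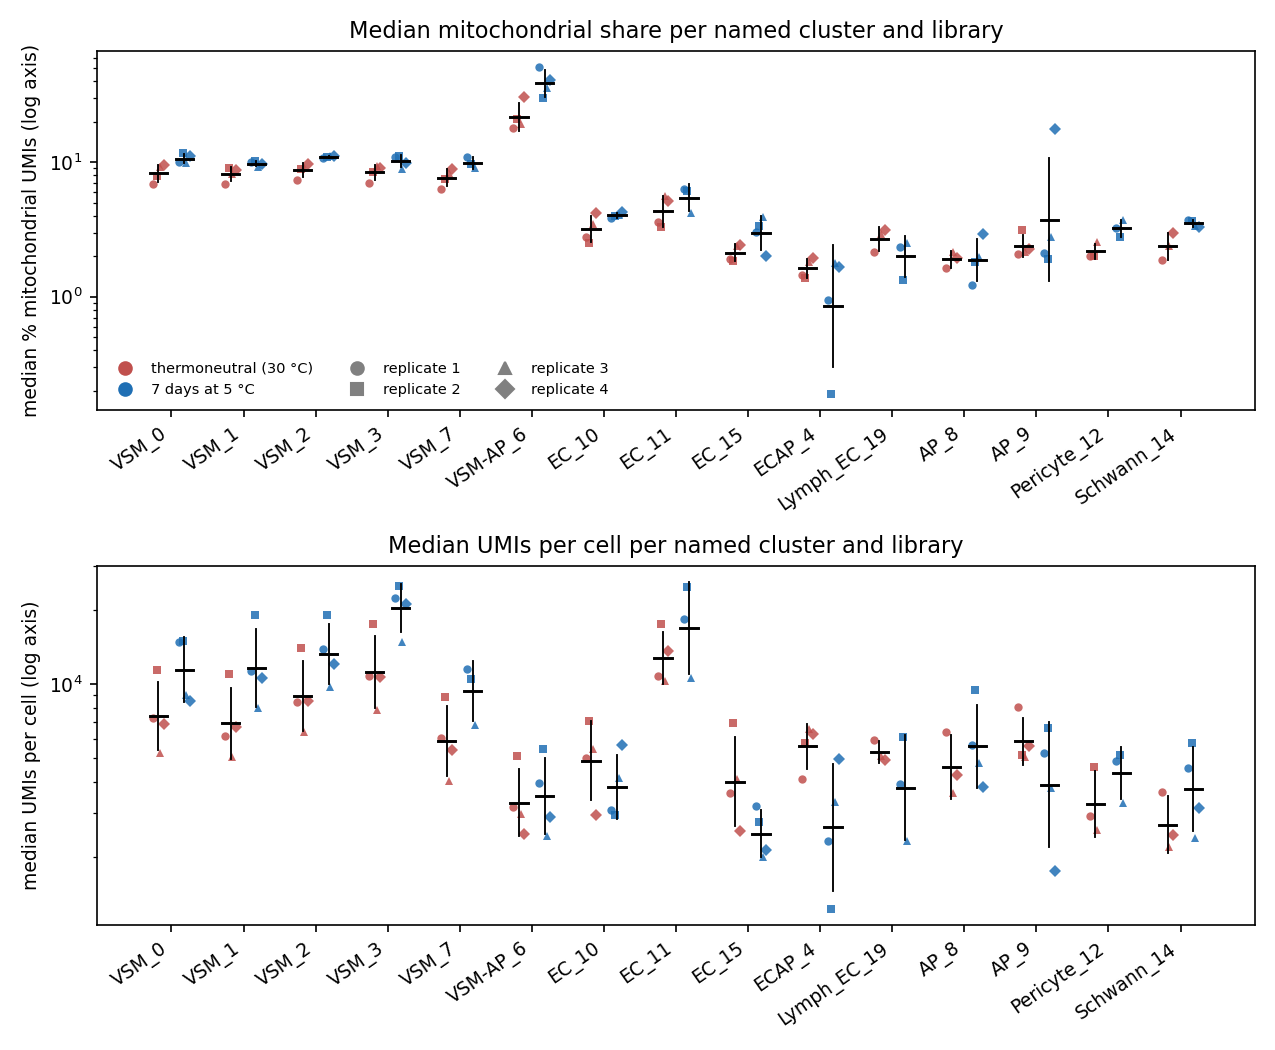
Median percent of mitochondrial UMIs (upper panel) and median UMIs per cell (lower panel) of each library for the 15 named clusters tested, both on log axes; points are libraries coloured by condition, horizontal marks the geometric mean and vertical bars 1 SD of the log values. VSM-AP_6 stands above all other clusters and is higher in the cold, and ECAP_4 has lower depth in the cold in 3 of 4 libraries.

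In the numbered clusters 2 of 32 passed in depth (6.25%, limma), both lower. Cluster 29, with no named cell, had 6536, 8298, 4036 and 3835 UMIs in thermoneutral replicates 1 to 4 and 1345, 2399, 1813 and 1417 in the cold. Its libraries did not overlap, at a log2 difference of −1.67 ± 0.31 (SE; adjusted p = 5e-06, limma). Thermoneutral replicates 1 and 3 held no cell below 1850 UMIs, and the medians of cold replicates 1, 3 and 4 lay below that count. The part of these unequal lowest counts in this and the other depth calls was not tested. Cluster 12, which holds the ECAP_4 cells, differed by −1.01 ± 0.31 on the log2 scale (SE; adjusted p = 0.0199, limma), which was lost without the same 4 libraries as ECAP_4 (adjusted p = 0.0747 to 0.298, limma).

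Complexity falls as a cell is sequenced more deeply, since few new genes are found, so it mirrors depth. Of 15 named clusters 4 passed (26.7%, limma), 2 higher (13.3%) and 2 lower (13.3%). Relative to all named cells of the library, whose class mix differed between conditions, 8 passed, all lower (limma). Complexity was higher in ECAP_4, from 0.89 ± 0.00413 to 0.911 ± 0.0137, and in EC_15, from 0.9 ± 0.0118 to 0.92 ± 0.00421 (SD, n = 4; adjusted p = 0.00835 and 0.0123, limma). Both had a lower median depth in the cold. It was lower in VSM_3, from 0.86 ± 0.0102 to 0.839 ± 0.0043 (adjusted p = 0.00835, limma), whose depth estimate was higher. Single omissions ended these calls: cold replicate 2 for ECAP_4 (adjusted p = 0.0733), thermoneutral replicate 2 or 3 for EC_15 (0.05 and 0.0611) and thermoneutral replicate 3 for VSM_3 (0.063, limma).

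In VSM-AP_6 complexity was 0.883, 0.871, 0.893 and 0.877 in thermoneutral and 0.826, 0.855, 0.857 and 0.846 in cold libraries (difference −0.0351 ± 0.0066 SE, adjusted p = 5.69e-06, limma), while its depth was nearly equal in both conditions. No library overlapped. The cluster with the rise in mitochondrial share therefore also had fewer genes detected for its depth. Cells with over 20% mitochondrial UMIs made up 53.8% ± 17.1 of it in thermoneutral and 87.4% ± 1.5 in cold libraries (SD, n = 4). With these cells left out, VSM-AP_6 had too few cells to be tested. Its cold libraries held only 25 to 29 cells each. Of the numbered clusters 5 of 32 passed (15.6%, limma), with 29, 12 and 18 higher (9.38%) and 9 and 10 lower (6.25%). All but 29 were lost in at least 1 omission, most often cluster 10, in 5 of 16 (adjusted p = 0.0536 to 0.174, limma); leaving out cold replicate 2 lost 9, 10, 12 and 18. Among cells of 2000 to 4000 UMIs 0 of 12 numbered clusters passed (limma), but 4 of the 5 could not be tested there, and only cluster 18 was tested and lost.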

How the data were processed

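Single-cell RNA libraries (Chromium Single Cell 3' v3) of 16 brown fat samples were described by per-cell tables. The submitters' processing notes name STAR, Cell Ranger 3.0.1 and mm10. For the cell filters, integration and clustering, settings were not given in the sources used here. Deposited by the authors were UMI and gene counts per cell without normalisation, the mitochondrial fraction (turned into percent), a ratio of log10 genes over log10 UMIs (complexity), S and G2M scores, phase calls and clusters.

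Each cluster was summarised per library: medians for UMIs, mitochondrial percent and complexity, means for scores, with at least 10 cells per library and 3 libraries per condition. Shares were put on the log2 odds scale with 0.5 cells added, where a cluster averaged at least 10 cells per library. Values of all 4 housing groups entered one limma 3.58.1 fit in R 4.3.3, with the contrast of cold and thermoneutral housing, two-sided, Benjamini-Hochberg adjusted over all clusters of a table within a measure (threshold 0.05). Single values were compared by two-sided exact permutation tests over 70 assignments. The limma steps were tested on simulated data. The comparison, clusters and tests were chosen with earlier results of these data known. Every share cluster is named, and for the other measures every cluster past the threshold (beyond 6, the 3 largest in each direction). Alternatives covered the fit, the replicate number, each library, cell and depth filters, scales and edgeR 4.0.16. Same-numbered libraries did not deviate together in every pair (correlation over 0.1 in all pairs for 1 of 11 results). Single correlations ran from −0.653 to 0.612. The main fit did not use the replicate number. This cut-off cannot exclude pairing or a batch, and several counts of calls changed when the number was used. Gene values were not analysed here; no thinning of UMIs was possible.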

Additional observations from a re-analysis of the deposited data

Results flagged for a closer look

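In 5 of 121 groups of 4 libraries examined, 1 library lay far from the other 3; chance alone gives about 1 in 20 such groups. VSM_27 was 0.548% of VSM cells in thermoneutral replicate 1 and 2.2% to 2.29% in the others. The mean S score of named cells was −0.00804 in thermoneutral replicate 1 and 0.00249 to 0.0043 in the others. Cold replicate 4 stood apart in 2 G2M scores that passed the test: EC_15 was at 0.0036 there and at −0.0294 to −0.0276 in the other cold libraries, and VSM_2 at −0.0255 against −0.0534 to −0.0497. The median depth of named cells was 6414 UMIs in cold replicate 2 and 4933 to 5106 in the other cold libraries.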

How the results depend on the processing

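Leaving out each library in turn (15 with named cells), VSM_21 and EC_11 and the 6 lower G2M scores passed every time (limma; log2 odds ratios 3.27 to 3.77 and −2.40 to −1.93). Lost in some were ECAP_4 depth and the VSM-AP_6 mitochondrial share (4 each), AP_8 and AP_9 in the S score (7 and 2). Counts of calls ranged, for named clusters, from 0 to 3 (UMIs), 0 to 1 (mitochondrial share), 2 to 6 (complexity), 0 to 2 (S) and 6 to 8 (G2M), for numbered ones from 1 to 4, 0 to 1, 1 to 6, 3 to 5 and 11 to 18, and for shares from 2 to 3. The 8 omissions of a thermoneutral or cold library left effective cluster numbers higher by 1.21 to 1.93 (VSM) and 0.451 to 0.781 (AP), and none passed (adjusted p = 0.0857 to 0.114, exact permutation tests). Near-zero differences changed sign: VSM_5 (−0.649 to 0.581), VSM_0 (−0.154 to 0.0426), VSM_7 (−0.123 to 0.528), Schwann_14 (−0.728 to 0.445), and over all cells the median UMIs (−814.2 to 0.833) and genes (−146.2 to 114.5).

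With the replicate number as a block, calls were 5 (UMIs), 9 (complexity) and 11 (S) in named and 4 (UMIs) in numbered clusters. Added in S were VSM_0, VSM_1, VSM_2, VSM_7, EC_11 and Pericyte_12 (lower) and Schwann_14, VSM-AP_6 and Lymph_EC_19 (higher). VSM (1.57) and AP (0.673) did not pass in effective clusters (0.125, the smallest p that swaps within 4 numbers allow). Replicates 1 and 2 against 3 and 4 as a covariate gave 6 (UMIs), 2 (mitochondrial), 9 (complexity) and 8 (S) in named, 4 (UMIs) in numbered clusters. Values relative to the whole library gave 9, 13 and 8 calls (UMIs, mitochondrial share, complexity) and 2 (G2M) in named, and 1 (UMIs), 0 (complexity) and 0 (G2M) in numbered clusters. Libraries under 3000 cells left out (chosen after seeing the data) gave 6 (UMIs), 2 (mitochondrial) and 0 (S) in named and 4 (UMIs) in numbered clusters, with Schwann_14 at 0.445 and VSM_5 at 0.853. A spread per cluster (chosen after seeing the data) gave 0 (UMIs) and 1 (S) in named and 0 (UMIs) and 3 (complexity) in numbered clusters. A minimum of 20 cells gave 2 (mitochondrial) and 1 (S) in named and 4 (UMIs) in numbered clusters. Means gave 0 (UMIs, named) and 1 (UMIs, numbered), medians 10 (G2M, named). Both conditions fitted alone gave 0 (mitochondrial, named) and 1 (numbered); adjustment over 5 measures 4 (UMIs) and 1 (mitochondrial, numbered), and no logarithm 1. Between 2000 and 4000 UMIs, calls in numbered clusters were 0 (complexity), 1 (S) and 6 (G2M), of 12 tested; named clusters had too few cells. Without cells below their library's median depth there were share calls for 4 clusters, not VSM_21, with VSM_0 at 0.256 and VSM_5 at 0.426. The cause of these changes was not tested.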
